A study of Danio rerio with 4 samples.

Results

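The *egln3* locus, also called *phd3*, was taken here as chromosome 17 from 9667732 to 9903851 in Zv9, which is the region of the gene displayed in the study (9767732 to 9803851) with 100 kb to each side. In this window of 236120 bp the deposited lists held 13 of their 6457 Hif-1α peaks, 7 of 1280 from wild-type and 6 of 5177 from *vhl*. Chromatin came from de-yolked, macerated whole zebrafish embryos of a TL/LWT mix at 4 days post fertilisation. One pool was labelled wild type and the other von Hippel Lindau mutant, and each gave a ChIP library, made with a custom Hif-1α antibody, and an input library made without antibody. By the study's methods, the mutants were homozygous for *vhl* hu2117 and carried Tg(*phd3::EGFP*) i144, a reporter made with a bacterial artificial chromosome, and they were separated from siblings without fluorescence. A bacterial artificial chromosome holds a large piece of genomic DNA, here from around this same gene. Whether the wild-type pool carried the reporter is not given in the sources used here. Reads from the reporter and reads from the gene's own place in the genome cannot be told apart in these lists.

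*egln3* encodes a prolyl hydroxylase of the PHD family. Enzymes of this family use oxygen to modify prolines of Hif-α. The modified form is bound by pVHL, part of a ubiquitin ligase, and is short-lived. The gene is itself a target of Hif in many vertebrates, so that its product acts back on the factor that induces it, and its transcript is widely used as a readout of Hif activity in zebrafish. In *vhl* mutants Hif-α is stabilised although oxygen and the hydroxylases are present. The comparison therefore asks where Hif-1α lay around this gene with and without pVHL.

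These primers are shown because they tie the peaks to the study's ChIP-qPCR. The first was designed at the ChIP-qPCR region of *egln3* (chromosome 17, 9787493 to 9787592) and the others at a control region close by (9785725 to 9785902), both in Zv9. They are written 5′ to 3′.
ChIP-qPCR region, forward primer: gaggaaaccggtgaaacaga
Control region, forward primer: aaccgcgataaaccttgaaa
Control region, reverse primer: ttgttgaccaggagctacagaa
None of these primers holds ACGTG or GCGTG, the forms of the Hif binding motif, on either strand. The ChIP-qPCR region lay wholly within the *vhl* peak from 9786183 to 9789942, whose summit at 9787541 was 1 bp from the centre of the region. The study describes designing such primers around selected *vhl* peaks, so this closeness is no independent support for the peak. The nearest wild-type peak was 6753 bp away. Of the 178 bp of the control region, 51 were in the *vhl* peak from 9783244 to 9785775 and 127 in the gap of 407 bp between that peak and the next. The study describes its negative controls as distant regions without a peak, which differs from this position. It also reports that the enrichment held whichever control region was used, and it shows values for a control near *jmjd6*.

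A gene start was worked out from the distance to the start that the primer list gives for the ChIP-qPCR region. The distance was assumed to run from the centre of that region, and another point would shift the result. The start falls at 9794821 if *egln3* runs on the reverse strand of Zv9 and at 9780263 if it runs on the forward strand. The strand is not given in the lists or in the gene table used here. A supplementary comparison of the study describes sites in the first intron, at the start and upstream of the gene. For the reverse strand, the 4 *vhl* summits of the displayed region lay 10483 and 7280 bp downstream of the start, 136 bp upstream and 3588 bp upstream. For the forward strand all 4 would lie downstream of the start, by 4075 to 18146 bp. There, the wild-type peak from 9780063 would be the nearest to the start, with its summit 98 bp upstream. The order of sites in that description is the one of the reverse strand, which is used below. The control region is labelled as upstream, which in the direction of the gene holds only on the forward strand, so the strand was not settled here. No exon was located, as no Zv9 annotation was used.

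With the reverse strand, Hif-1α peaks lay at the start of the gene in both genotypes. The wild-type peak from 9794346 to 9795179 held 107 tags (reads kept at distinct positions) and the *vhl* peak from 9793395 to 9796409 held 1237. The wild-type summit at 9794740 was 81 bp downstream of the start worked out above and the *vhl* summit at 9794957 was 136 bp upstream of it. Distances this short, and the side of the start, depend on the assumption made for the start. To compare the libraries, tags were divided by the length of the peak and by the tags kept for that ChIP library, 7554444 in wild-type and 16145214 in *vhl*, and given per kb and per 1000000 tags kept. This density was 16.98 at the wild-type peak and 25.4 at the *vhl* peak, a ratio of 1.496 (95% exact conditional binomial interval 1.23 to 1.84). No genotype had a replicate, so no test between the genotypes was possible, and all intervals cover counting error only. In whole embryos, binding in more cells and stronger binding per cell cannot be told apart.

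Upstream of the start, the *vhl* peak from 9796444 to 9803138 held 2871 tags over 6695 bp, with its summit at 9798409. It was 34 bp from the *vhl* peak at the start, with 3452 bp between their summits. It held 2 wild-type peaks within it, whose false discovery rates (FDR) from the peak caller were 51.5% and 10.4%. The wild-type peak from 9797272 to 9797651 held 56 tags, a density of 19.5, against 26.6 in the *vhl* peak, a ratio of 1.36 (interval 1.05 to 1.81). The wild-type peak from 9798220 to 9799407 held 153 tags, a density of 17.05, which gave a ratio of 1.56 (interval 1.32 to 1.85). The *vhl* peaks were 3.62, 17.6 and 5.64 times as long as the wild-type peaks inside them, and the density of the longest enters 2 of the 3 ratios. These ratios therefore compare averages over regions called separately in each list and are not fold changes at a single point. Without division by length, the depth-scaled tags were 5.41, 24.0 and 8.78 times as high in *vhl*, and without scaling for depth the tags per kb were 3.20, 2.91 and 3.33 times as high. The *vhl* value was the higher of each pair on each of these scales. That adds no support, because the *vhl* peaks were longer and the *vhl* library deeper. Leaving out either division could therefore only raise the ratios.

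The summits of these 3 pairs were 217, 933 and 241 bp apart. None lay within 100 bp, whereas the median distance over the other 158 pairs of overlapping peaks in the genome was 27 bp. The distances ranked 20, 2 and 17 from the largest among all 161 pairs. These distances are not like for like. The *vhl* peaks at *egln3* were 3015 and 6695 bp long against a list median of 567 bp, so summits had more room to lie apart. The wild-type peaks of 56 and 153 tags lie in the same *vhl* peak, with their summits 1174 bp apart. Both could therefore not lie within 100 bp of its summit. The ratio of densities over those 158 pairs had a median of 0.528 and ran from 0.112 to 3.41, with the middle 50% from 0.419 to 1.30, and it was over 1 in 50 pairs. The values at *egln3* are set beside these as a description, with no test.

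**Figure D1:**
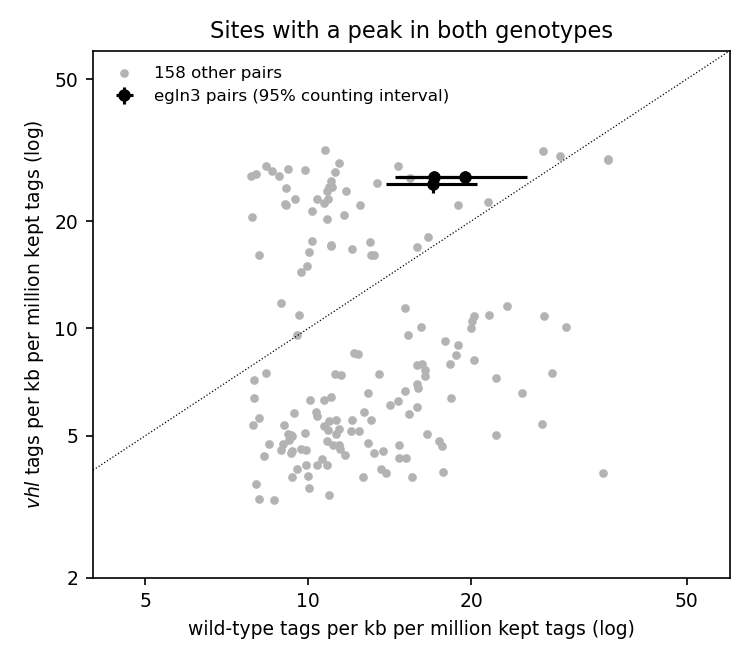
Density, in tags per kb of peak per 1000000 tags kept, in wild-type (x axis, log scale) and *vhl* (y axis, log scale) for each pair of overlapping peaks, with the 3 *egln3* pairs in black (bars are 95% Poisson intervals of the tags) and the 158 other pairs in grey. The *egln3* pairs sit at 16.98 to 19.5 in wild-type and 25.4 to 26.6 in *vhl*, above the dotted line of equal density.

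Of the 7 wild-type peaks of the window, 3 overlapped a *vhl* peak, against 12.6% of the whole wild-type list. In the other direction, a wild-type peak lay within 2 of the 6 *vhl* peaks, against 2.92% of the *vhl* list. These shares are not like for like, because the peaks of the window were longer. They had 142 to 1199 bp against a list median of 99 bp in wild-type, and 708 to 6695 bp against 567 bp in *vhl*. The remaining 4 wild-type peaks and 4 *vhl* peaks lay apart from each other. The study describes the wild-type peaks around *egln3* as lying at other sites than those in the mutants. Here 3 lay wholly within *vhl* peaks, with summits 217 to 933 bp apart, and 4 did not overlap. Downstream of the start, the *vhl* list had peaks from 9783244 to 9785775 (719 tags) and from 9786183 to 9789942 (690 tags) without a wild-type peak. In turn, wild-type peaks lay from 9776705 to 9777903 (265 tags) and from 9780063 to 9780204 (23 tags), without a *vhl* peak. The gap between the wild-type peak of 23 tags and the nearest *vhl* peak was 3039 bp.

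The wild-type peak from 9776705 to 9777903 was the densest wild-type peak of the window. Its density was 29.3 (95% Poisson interval 25.8 to 33.0), against 26.6 (interval 25.6 to 27.6) in the densest *vhl* peak, so the intervals overlapped. Before scaling for depth the order was the reverse, with 221 against 429 tags per kb. The wild-type summit at 9777355 was 17466 bp downstream of the gene start. The *vhl* library, with 2.14 times as many tags kept, had no peak within 5340 bp of it. By tags and by length it ranked first of the 1280 wild-type peaks. The wild-type peak from 9780063 to 9780204 was short, at 142 bp, and had a density of 21.4 and an FDR of 81.3%.

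In the flanks, the wild-type list had a peak from 9682717 to 9683095 (32 tags, score 54.8) and one from 9806126 to 9806570 (40 tags, score 51.4), where the score is the caller's p-value as −10 log10 and peaks under 50 were not kept. The *vhl* list had a peak from 9690440 to 9693543 (536 tags, score 96.5) and one from 9889651 to 9890358 (58 tags, score 143). None of these 4 overlapped a peak of the other list. The first *vhl* peak of the flanks lay 7344 bp from the wild-type peak of 32 tags.

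The locus held more tags than any other of its size in both lists. The 4 *vhl* peaks of the displayed region had 5517 tags and covered 16002 of its 36120 bp (44.3%). The 5 wild-type peaks had 604 tags and covered 3743 bp (10.4%). The *vhl* tags were 9.13 times as many, and 4.27 times when scaled for the tags kept. The covered lengths rest on peaks called separately in each list. Windows as wide as the displayed region were also laid from the start of every other peak. The highest sum elsewhere was 3005 tags in *vhl* among 5173 windows, on chromosome 4 from 24549318. In wild-type it was 253 tags among 1275 windows. The *vhl* window on chromosome 4 is that of *pfkfb3*, which encodes an activator of glycolysis. By number of peaks the *egln3* region ranked only 26 in *vhl*, with 4 peaks against 10 at *pfkfb3*. The whole *egln3* window held 1.69% of all tags in *vhl* peaks (95% Wilson interval 1.65 to 1.74%) and 5.56% of all tags in wild-type peaks (interval 5.17 to 5.98%). Among peaks with an FDR of 5% or less these shares were 1.89% and 15.6%. The order of the genotypes turned round when all ChIP tags kept were the denominator, with 0.0379% in *vhl* and 0.00895% in wild-type.

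The enrichment of these peaks over their local background was not as high as their tags. Fold enrichment, the ratio of ChIP to local background that the peak caller gives, was 24.1 at the *vhl* peak of 2871 tags, 25.6 at that of 1237, 24.9 at that of 719 and 28.6 at that of 690. The median of the whole *vhl* list was 27.3. The study calls the value of 28.6, at a peak it describes as holding the Hif motif, high. Together with its expression data, it gives this as a reason to suspect high Hif-1α binding. In the *vhl* list that value lay at percentile 52.9. The *vhl* list held 5 other peaks with at least 690 tags, from 711 to 961. Their fold enrichments ran from 95.03 to 197, and the 4 peaks near *egln3* were below all of them. These 5 were also shorter, at 1180 to 1832 bp against 2532 to 6695 bp. In wild-type, the fold enrichments of the 7 peaks ran from 4.85 to 10.95 and lay between percentiles 0.234 and 4.14 of the list. There, 13 other peaks had at least 56 tags. Their median fold enrichment was 48.4, against 6.04 to 10.95 for the 4 such peaks at *egln3*. Here the groups overlapped, since the 13 ran from 3.42 to 77.2 and 2 of them were at or below the highest value at *egln3*.

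The nearest strong *vhl* peak outside the window can be set beside these on the same chromosome. It lay from 10034046 to 10035396, 247 kb from the ChIP-qPCR region, with 583 tags over 1351 bp, or 432 tags per kb. The *vhl* peak upstream of *egln3* had a close 429 tags per kb, but from 2871 tags over 6695 bp. These are averages over unlike lengths. The fold enrichment of the shorter peak was 168 and its score 2812, against 24.1 and 2503 upstream of *egln3*. The wild-type list had 2 peaks of 7 tags each within it.

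**Figure D2:**
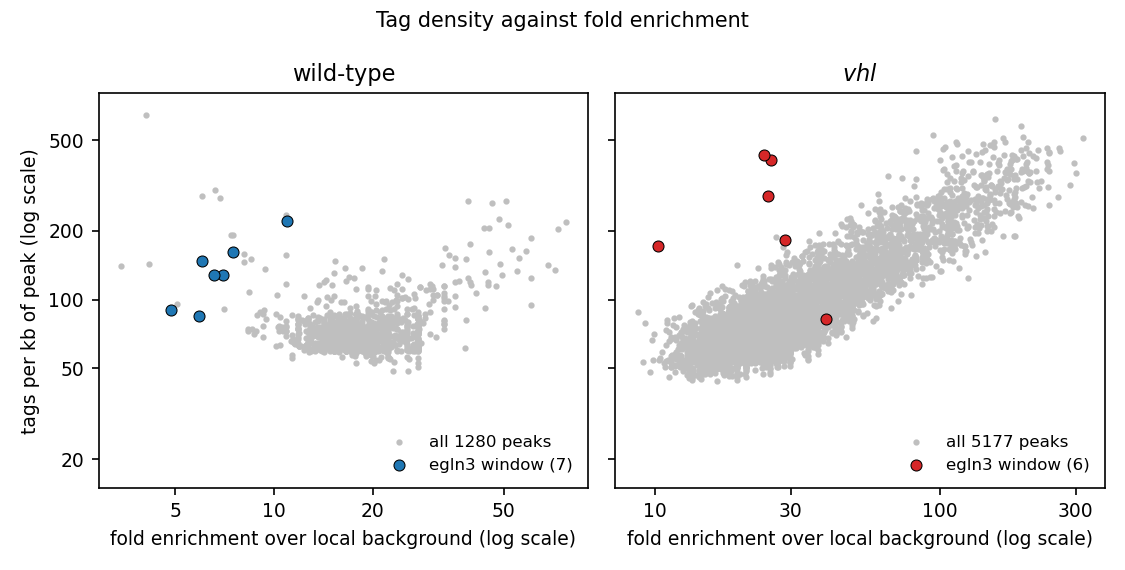
Tags per kb of peak (y axis, log scale) against fold enrichment over local background (x axis, log scale) for all wild-type (left) and *vhl* (right) peaks in grey, with the peaks of the *egln3* window in colour. Of the 6 *vhl* peaks, 4 lie clear above the band of the list, at fold enrichments of 10.3 to 25.6. The peak at 28.6 lies at the upper edge of the band and the peak at 39.9 within it. All 7 wild-type peaks lie at or under 10.95.

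Tags per kb divided by fold enrichment was used as an indirect index of the local background at a peak, within a single list. Tags per kb is an average over the called peak, so the quotient can also depend on the length and shape of the peak. This quotient was 17.8 at the *vhl* peak upstream of the start, 16.8 at the *vhl* peak of the flank from 9690440, 16.0 at the start and 11.4 at the peak of 719 tags, and these were the 4 highest of the 5177 *vhl* peaks. The peak that holds the ChIP-qPCR region had 6.43 and ranked 26. The list median was 2.96, and the highest value elsewhere was 10.1, on chromosome 11 from 28064493 to 28065151, followed by peaks on chromosome 12 from 9486573 and on chromosome 8 from 19355307. Outside the window, 21 *vhl* peaks on 14 chromosomes reached 6.43 (0.406% of the list).

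In wild-type the quotient ran from 14.3 to 24.4 over the 7 peaks, against a list median of 3.81. At least 18.4, the lowest value of the displayed region, was reached by 11 wild-type peaks elsewhere, the highest of them on chromosome 25 from 27522820 to 27522886 (157), on chromosome 7 from 35922165 (47.1) and on chromosome 16 from 16636895 (45.8). These 3 peaks were only 43 to 67 bp long. Among the 29 wild-type peaks of at least 300 bp, a length chosen after the values were seen, 6 were in the *egln3* window and had 14.3 or more, and 3 of the other 23 did as well. All 3 lay together on chromosome 4 from 61297445 to 61299746, where the *vhl* list had no peak within 10 kb.

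Along chromosome 17 the high quotients formed a run of consecutive peaks around the gene. The run was built outward from the peak nearest the ChIP-qPCR region. It was extended while the next peak of either list was at or above the 95th percentile of its own list. It went from 9682717 to 9806570, a span of 124 kb, and held 12 peaks, 7 wild-type and 5 *vhl*. That its peaks reach this level, and where it ends, follow from this rule. In the whole window, all 7 wild-type peaks and 5 of the 6 *vhl* peaks reached the level. Over the lists, 5% of wild-type peaks and 4.98% of *vhl* peaks did. Relative to the list medians, the peaks of the run were 2.17 to 6.40 times as high. No peak of either list lay between 9693543 and 9776705, so most of the span held no value. On the right, the run ended at the *vhl* peak from 9889651 to 9890358, after 83.1 kb without a peak, whose quotient was 0.692 times the median. On the left, the next peak of either list was 1089 kb away, a wild-type peak at 1.28 times the median, so the extent to that side could not be narrowed. Within 1000 kb of the window but outside the run, the remaining 5 *vhl* peaks lay at 0.692 to 1.41 times their median and the remaining 3 wild-type peaks at 0.918 to 1.10 times theirs. On the whole of chromosome 17 no other peak of either list was above 3.40 times its median.

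**Figure D3:**
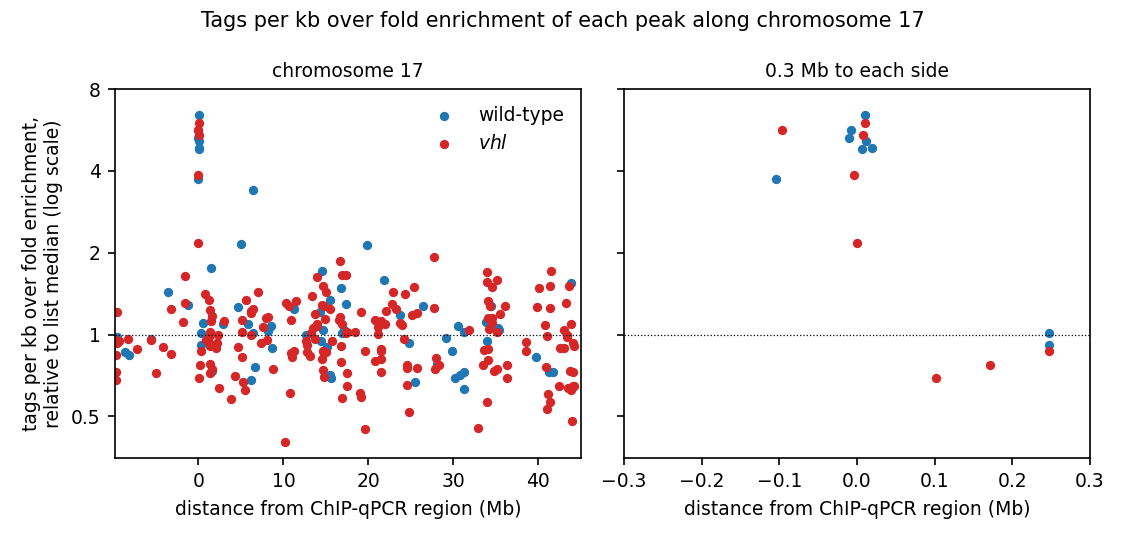
Tags per kb over fold enrichment of each wild-type (blue) and *vhl* (red) peak relative to the median of its list (y axis, log scale), by distance from the ChIP-qPCR region in Mb (x axis), for chromosome 17 (left) and close to the gene (right). The 12 peaks of the run stand at 2.17 to 6.40 times the median in both genotypes, and the next peak to the right is at 0.692.

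The reporter described above is built on DNA of this region, and its part in the high tags, the long peaks and the quotients was not tested. Coverage of the input libraries was not used here, so the background was seen only through the fold enrichment.

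The enrichment over local background was higher in *vhl* than in wild-type in each of the 3 overlapping pairs, which hold only 2 *vhl* peaks. At the start it was 25.6 against 6.97, a ratio of 3.68, and upstream it was 24.1 against 6.04 and against 6.58, ratios of 3.99 and 3.66. Over the other 158 pairs this ratio had a median of 1.64 and ran from 0.289 to 25.1. It was below 1 in only 42 of them, so a higher value in *vhl* was common. The ratios at *egln3* ranked 48, 44 and 49 from the largest among all 161 pairs. Each value is relative to the input of its own genotype, and the modelled fragment length differed, at 34 bp in wild-type and 110 bp in *vhl*, so these ratios are not on the scale of the tag densities. All 6 *vhl* peaks of the window had an FDR of 5% or less, against 77.1% of the *vhl* list, and 2 of the 7 wild-type peaks did, against 3.59% of the wild-type list. These 2 were the peak of 265 tags (FDR 0) and the peak at the gene start (FDR 4.65%). The FDR of the remaining wild-type peaks ran from 10.4 to 81.3%, so these calls are weak.

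Among the other 20 regions of the ChIP-qPCR primer list, 5 had a peak in both genotypes. The 3 whose ratio of densities was nearest to the median of 1.496 at *egln3* were those of *tnfrsf19*, a receptor of the tumour necrosis factor family, *prelid1*, a mitochondrial lipid transfer protein, and *gapdhs*, a glycolytic enzyme. At *tnfrsf19* the densities were 14.6 in wild-type (27 tags) and 28.6 in *vhl* (467 tags), a ratio of 1.95 (interval 1.32 to 2.99). At *prelid1* they were 10.9 (9 tags) and 24.9 (393 tags), a ratio of 2.28 (interval 1.19 to 5.03). At *gapdhs* they were 11.4 (10 tags) and 29.0 (741 tags), a ratio of 2.54 (interval 1.38 to 5.33). These 3 were chosen for their nearness to *egln3*, so their likeness to it is no finding. The ratio at *znf292b*, 2.95 (interval 1.71 to 5.57), was higher. At *ap3m2* the densities were 35.7 in wild-type (85 tags) and 29.8 in *vhl* (616 tags), a ratio of 0.834 (interval 0.664 to 1.06), lower than at the *egln3* start. The intervals cover counting error only and not the effect of the separately called lengths, so they do not set the loci apart. The *vhl* fold enrichments of the 20 regions ran from 104 to 317, against 28.6 at the *egln3* region of the same list, and their quotients from 1.20 to 4.50, against 6.43. These contrasts are not like for like, because the study describes picking highly significant *vhl* peaks for its validation. Each of the 20 had a higher score than the *egln3* peak. The median fold enrichment of the whole *vhl* list was 27.3, close to the value of 28.6.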

How the data were processed

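The authors aligned single reads of 35 bp to Zv9 (danRer7) with CASAVA 1.8.2, kept uniquely mapped reads and ran MACS 1.4.2 on the ChIP and input of each genotype (p-value 1e-05, local background over 1000 and 10000 bp, at most 1 tag per position). The deposited lists give tags as raw counts, a score, fold enrichment as a ratio and FDR in percent, with length and summit in bp. Uniquely mapped reads were 16780814 (wild-type ChIP), 19400899 (wild-type input), 33429235 (*vhl* ChIP) and 13834669 (*vhl* input).

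Peaks sharing at least 1 bp with the window were taken, and overlap required 1 bp. Densities, quotients, ranks and percentiles (share of the list with a lower value) were computed with Python 3.11.15 (scipy 1.17.1, pandas 2.3.3, numpy 2.4.6) and drawn with matplotlib 3.10.9. Overlap and interval code was tested on simulated data. All peaks of the window were named. Of the other primer regions with both peaks, the 3 nearest in log2 density ratio were named, and the 3 highest quotients elsewhere in each list. The locus and these measures were chosen with earlier results of these data known. The alternatives were the displayed region alone, thresholds on FDR and score, joining of close peaks, other overlap rules, other scalings and other reference sets. Primer sequences, regions and the distance used for the gene start came from the study's supplementary files. Motifs, promoters, the protein and other genes of the pathway were not analysed here, since no Zv9 sequence or annotation was used. The authors' microarray and ChIP-qPCR values were not used. One primer of the ChIP-qPCR region is not reported here.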

Additional observations from a re-analysis of the deposited data

How the results depend on the processing

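With 1 library per genotype and kind, precision was limited to counting error, which is widest for peaks of few tags. No paired analysis was possible because no group had more than 1 library. Of 52 values under alternatives, 24 stayed within the interval of the reported value or, for counts and ranks, within 1.5 times of it, and 28 moved. No ratio of densities fell below 1, but leaving out the division by length or depth could only raise these ratios. The wild-type peaks of the window were 2 at an FDR of 5% or less and 3 at a score of 100 or more. Those overlapping a *vhl* peak were 1 at that FDR and 0 when summits had to lie within 100 bp. The share of peak tags was 1.53% (*vhl*) and 4.97% (wild-type) for the displayed region, 1.89% and 15.6% among peaks at that FDR, and 0.0379% and 0.00895% of all ChIP tags kept. The median ratio of densities was 3.20 without scaling for depth, 8.78 without division by length, and 3.68 from fold enrichment. The median percentile of tags per kb over fold enrichment, 99.9 (*vhl*) and 98.98 (wild-type), was 98.3 and 94.1 on chromosome 17, 96.7 in wild-type at that FDR, and 79.3 among wild-type peaks of at least 300 bp, an alternative chosen after seeing the data, where 6 of 29 peaks are those of the locus. The *vhl* rank of the region, first by tags, was 26 by number of peaks and 13 by score.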
